A study of Rattus norvegicus with 44 samples.

Results

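Sham surgery can serve as a reference for experimental stroke, and the operation is itself an injury to the cortex. The paper took healthy rats as controls instead, stating that sham-operated rats did not differ significantly from them. It did report some genes with an adjusted p below 0.05 in that comparison. The comparison described here set 4 arrays of sham-operated ipsilateral cortex at 3 d against 4 arrays of sham-operated ipsilateral cortex at 24 h, 8 of the 44 arrays of the series, chosen by the labels for brain region, time and treatment. The series followed permanent occlusion of the middle cerebral artery in the rat at 24 h and 3 d, with sham-operated and healthy animals beside the ischemic ones. All rats were adult Sprague-Dawley animals. The sham groups received ketamine, diazepam and atropine as anaesthesia, meloxicam as analgesia and a small craniotomy over the right middle cerebral artery, without ligation of the vessel. The stroke model also closed both common carotid arteries for a time. Per the paper, sham rats had the same protocol with no occlusion. Healthy rats were not operated, so anaesthesia, analgesia, craniotomy and any other step of the surgery cannot be told apart in a comparison with them. RNA of 3 rats was pooled on each array, with rat pools 5, 6, 7 and 8 at 24 h and pools 13, 14, 15 and 16 at 3 d, so different animals were sampled at each time. The contralateral cortex of the same pools (8 arrays) and ipsilateral cortex of healthy rats (pools 17 to 20, 4 arrays) were used to read the result. Values are log2 signal after quantile normalization, and a difference is the log2 value at 3 d minus that at 24 h.

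Opening the skull over the cortex wounds meninges, vessels and brain surface. Astrocytes and microglia then release chemokines, neutrophils and monocytes enter, and astrocytes switch on acute phase genes, a response that is known to fade over days when no infarct forms. Anaesthesia, pain and stress hormones act on the whole brain, so that cortex of the side that was not opened carries those influences without the local wound.

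All 13 neuron markers, 10 astrocyte markers and 11 oligodendrocyte markers tested were well above background on all 8 arrays, as were the 6 superficial and 8 deep cortical layer markers. Of 8 lymphocyte markers, Cd2, Cd4, Cd5 and Cd8a were well above background on none of them. Below, a gene counted as above background on an array was well above it by the same flag. In whole tissue, fewer cells of a type and less RNA per cell cannot be told apart.

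No probe passed the test between 3 d and 24 h in sham-operated ipsilateral cortex. Of 30514 probes tested with limma over all arrays, 0 had an adjusted p below 0.05 with at least a 2-fold change (0%), and the smallest adjusted p was 0.528. When the 20 sham and healthy arrays were fitted with array weights, 560 probes were called, 229 higher and 331 lower at 3 d, and the cause was not tested. At an unadjusted p below 0.05 there were 2869 probes (9.4%), of which 1480 were higher (4.85%) and 1389 lower (4.55%) at 3 d, and 400 of them differed at least 2-fold (1.31%). The 4 arrays of one time did not overlap those of the other for 918 probes higher at 3 d (3.01%) and 459 lower (1.5%), and among the 12082 genes with a symbol, counted with 1 probe each, for 513 (4.25%) and 159 (1.32%). The 95% interval of the difference lay within 2-fold in either direction for 18407 probes (60.3%), and for the other 12107 a change of 2-fold or more was not excluded. The standard error of a difference had a median of 0.28 on the log2 scale.

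The arrays of each time varied among themselves about as much as between times. Over all probes the Pearson correlation between arrays had a median of 0.966 within 24 h (6 pairs), 0.970 within 3 d (6 pairs) and 0.967 between the times (16 pairs). The median processed signal was 30.4, 32.6 and 36 in 24 h pools 5, 6 and 7 and 54.4 in pool 8, against 48, 40.5, 38.3 and 54.4 in 3 d pools 13 to 16. Thus 3 of the 4 arrays at 24 h were dimmer than every array at 3 d, and the part of array brightness in the differences below was not tested. The count at an unadjusted p below 0.05 depended on single arrays: it was 984 without 24 h pool 5, 1546 without pool 7, 1147 without 3 d pool 16 and 1779 without 3 d pool 13, and it was 5499 without 24 h pool 8 and 4646 without 3 d pool 15. The number of called probes stayed at 0 without each of these arrays but pool 13, without which 2 probes that carry no gene symbol were called.

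**Figure D1:**
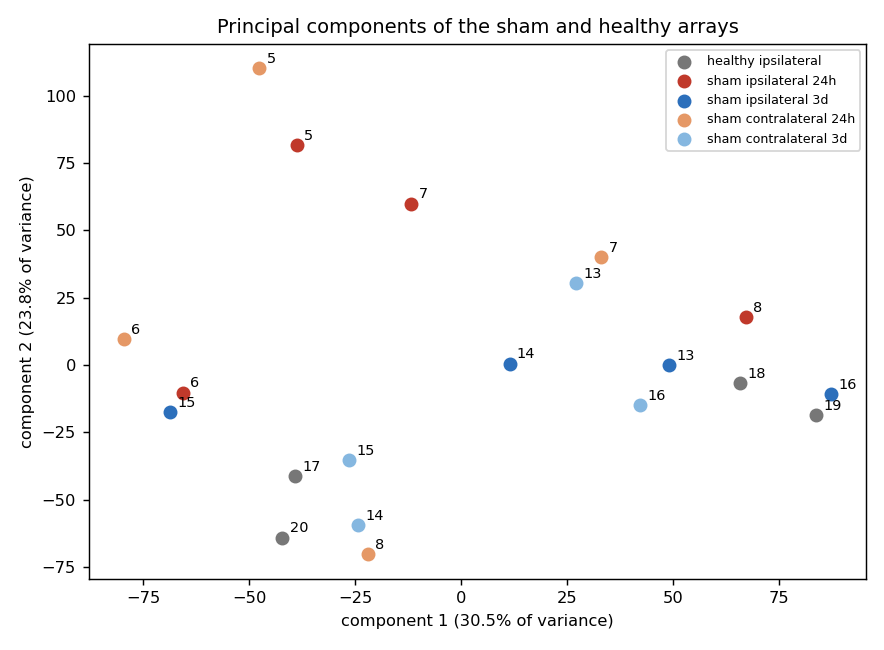
Principal components of the 20 sham and healthy arrays, with component 1 (30.5% of the variance) on the x axis and component 2 (23.8%) on the y axis. Each point is an array, coloured by group and numbered by rat pool. The 24 h ipsilateral array of pool 8 lies at 67.1 on component 1 beside 3 d arrays and healthy pools 18 and 19 (65.7 and 83.6). Healthy pools 17 and 20 lie at -39.1 and -42.2, and the 3 d array of pool 15 lies at -68.7 beside 24 h pool 6. The median processed signal was 54.4 in 24 h pool 8 and 54 and 52.9 in healthy pools 18 and 19. It was 34.6 and 41.6 in healthy pools 17 and 20 and 38.3 in 3 d pool 15. The part of array brightness in component 1 was not tested.

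When the fit was limited to the 20 sham and healthy arrays, a single probe passed, that of Dio3, the deiodinase that inactivates thyroid hormone. Dio3 was not in the set named by rule and is singled out after its values were seen. Its log2 signal was 4.27, 4.34, 4.5 and 3.89 in 24 h pools 5, 6, 7 and 8 and 6.18, 5.97, 5.58 and 5.62 in 3 d pools 13, 14, 15 and 16. All arrays at 3 d lay above all arrays at 24 h, and the healthy arrays (5.57 to 5.86) lay with those at 3 d. The difference was 1.59 ± 0.47 (SE in the fit of all arrays, n = 4 and 4), a 3-fold higher level at 3 d. Its adjusted p by limma was 0.528 in that fit and 0.0275 in the 20-array fit, which estimates the spread anew. The difference was 0.45 with normexp background correction and 0.72 with the gene's other probe. In contralateral cortex the difference was 1.91 ± 0.47, and Dio3 was called there too in the 20-array fit (adjusted p 0.00205 by limma). The test of the change between sides gave -0.33 ± 0.28. On the slides that held an array of each time the difference was 1.70 and 1.73.

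The reactive astrocyte list, 12 genes that astrocytes are known to raise after injury, had a median difference of -0.55 ipsilaterally, against 0.08 over all 12082 genes. Of its members 10 were lower and 2 higher at 3 d, and 3 were lower at an unadjusted p below 0.05, where 2.37% of all genes were. None of its 12 intervals lay within 2-fold. In contralateral cortex the median was -0.08. Against healthy cortex, in comparisons that share these arrays, the list's median was 1.03 at 24 h, where 7 of the 12 were higher at an unadjusted p below 0.05 (5.35% of all genes), and 0.52 at 3 d, where none was (0.116%). This list and those below were chosen with earlier results of these data known. Their contrast with all genes is therefore no separate evidence.

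Serpina3n, an acute phase protease inhibitor of reactive astrocytes, had a log2 signal of 8.57, 6.98, 5.14 and 6.04 in 24 h pools 5 to 8 and of 3.89, 3.32, 5.75 and 5.52 in 3 d pools 13 to 16. Pools 15 and 16 at 3 d were within the range at 24 h, whereas pools 13 and 14 were within the healthy range of 2.54 to 3.89. The difference was -2.06 ± 0.81 (95% interval -3.70 to -0.42), that is 4.17-fold higher at 24 h, with an unadjusted p of 0.0155 and an adjusted p of 0.528 by limma. Lcn2, which encodes the iron-scavenging lipocalin-2, read 8.00, 7.84, 5.41 and 6.22 at 24 h and 4.38, 4.44, 6.75 and 5.33 at 3 d. Pools 5 and 6 were again the highest at 24 h, and 3 d pool 15 lay above 24 h pools 7 and 8. The difference was -1.65 ± 0.59 (unadjusted p 0.00801, adjusted p 0.528).

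Hspb1, a small heat shock protein, read 11.27, 10.25, 9.24 and 8.92 at 24 h and 8.24, 8.22, 9.72 and 8.77 at 3 d, a difference of -1.18 ± 0.54. Timp1, the inhibitor of matrix metalloproteinases, read 12.92, 10.83, 9.88 and 9.72 at 24 h and 9.02, 8.77, 10.93 and 10.25 at 3 d, a difference of -1.10 ± 0.63. In both genes pool 5 was the highest array at 24 h and pool 15 the highest at 3 d, and the groups overlapped. Osmr, the oncostatin M receptor, was well above background on 3 arrays at 24 h and on none at 3 d. Any 3 d array below a floor, the lowest signal among probes well above background on that array, was raised to it. The mean level of Osmr was then 1.45-fold higher at 24 h (fitted difference -0.93 ± 0.47), although healthy arrays ranged from 2.15 to 4.75. By contrast Gfap, the intermediate filament of astrocytes, had a difference of -0.22 ± 0.41, and Vim, vimentin, one of 0.35 ± 0.39.

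**Figure D2:**
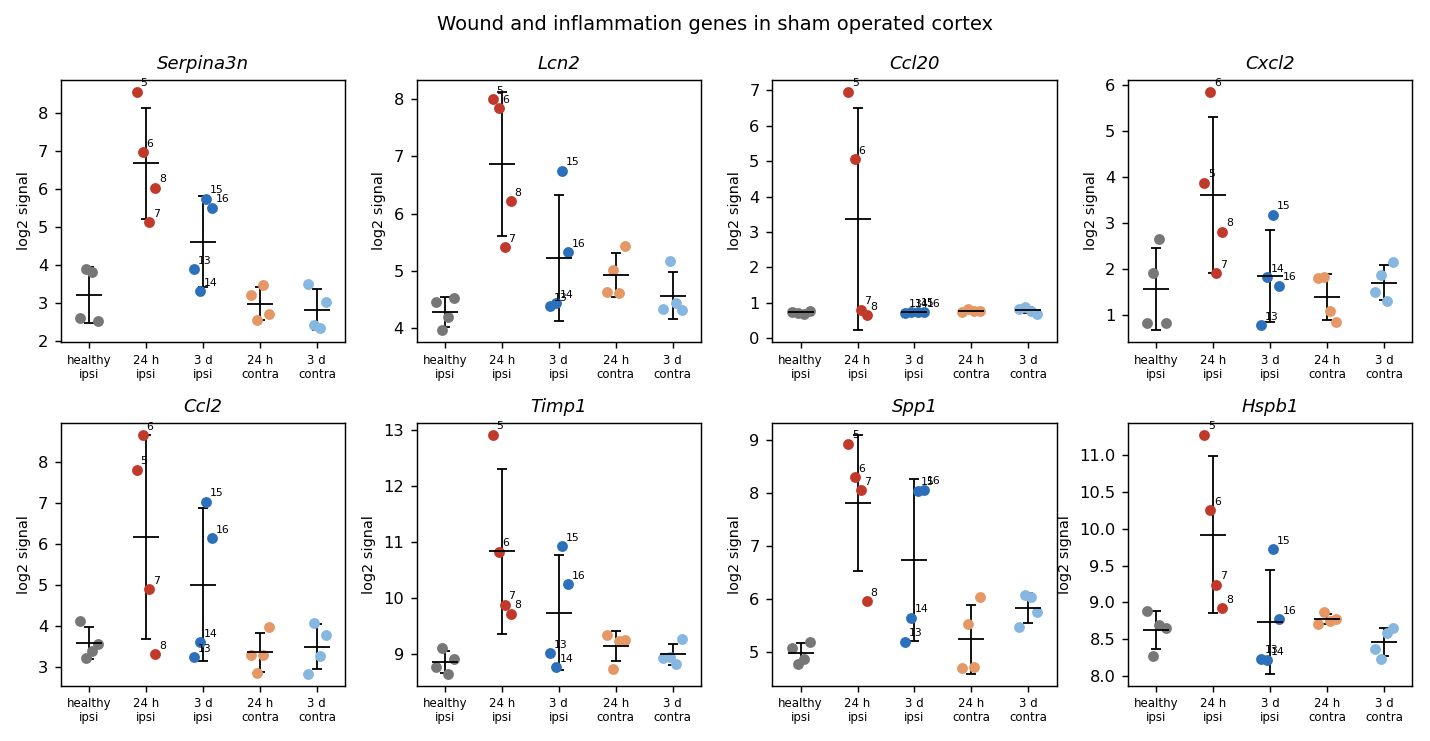
Log2 signal (y axis) of 8 wound and inflammation genes on every sham and healthy array. Points are arrays, numbered by rat pool in the ipsilateral sham groups, and bars are the mean and SD of 4 arrays. In each panel the highest array at 24 h is pool 5 or 6, and pool 15 or 16 is the highest at 3 d, while Ccl20 stays at 0.75 or lower on all arrays at 3 d.

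Among cytokines and chemokines, the signals that draw leukocytes, 15 of 18 genes were lower and 3 higher at 3 d, with a median of -0.40 ipsilaterally and -0.03 contralaterally. The ipsilateral median was -0.69 with 75th percentile scaling, -0.83 in the authors' normalized table and -0.14 with normexp background correction. Only Ccl20 and Cxcl2 were lower at an unadjusted p below 0.05, where 2.37% of all genes were. Il6 and Tnf were above background on none of the 8 arrays. Ccl20, which attracts CCR6-bearing lymphocytes and dendritic cells, read 6.96 and 5.05 in 24 h pools 5 and 6 but 0.81 and 0.65 in pools 7 and 8. At 3 d it read 0.72, 0.73, 0.75 and 0.73, and was above background on no array there. With 3 d arrays below the signal floor raised to it, its mean level was 1.77-fold higher at 24 h. Pools 5 and 6 carried this gap. The fitted difference was -2.64 ± 0.99 (unadjusted p 0.0113, adjusted p 0.528 by limma).

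Cxcl2, a neutrophil attractant, read 3.88, 5.86, 1.91 and 2.82 at 24 h and 0.78, 1.83, 3.19 and 1.64 at 3 d. It was above background on 3 arrays at 24 h and on none at 3 d. With 3 d arrays below the signal floor raised to it, its mean level was 2.03-fold higher at 24 h. The fitted difference had an unadjusted p of 0.0413 and an adjusted p of 0.529 by limma. The groups overlapped, as 3 d pool 15 lay above 24 h pools 7 and 8. Il1b read 6.58, 7.61, 5.67 and 4.91 at 24 h and 4.99, 4.73, 5.69 and 4.69 at 3 d, a difference of -1.17 ± 0.58. Pools 5 and 6 were the high arrays for both genes. Ccl2, the monocyte attractant, read 7.82, 8.66, 4.91 and 3.33 at 24 h and 3.25, 3.62, 7.04 and 6.15 at 3 d. Its difference of -1.16 ± 1.07 had an interval of -3.33 to 1.00, and pools 15 and 16 lay above 24 h pools 7 and 8. Cxcl1 had the same form, with 7.98 and 7.56 in 24 h pools 5 and 6, 0.57 and 0.86 in pools 7 and 8, and 4.75 in 3 d pool 15 (difference -1.77 ± 1.19).

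The promoters of 4 genes that were highest in pool 5 or 6 at 24 h are shown. Both transcription factor families behind the motifs are known to act in acute inflammation. The 4 were picked by hand and not by a rule. Other genes highest in those pools, among them Ccl2, Timp1, Spp1, Hspb1, Il1b, Cxcl1 and S100a8, are not shown. How often such genes carry a match was therefore not tested. Each is the RefSeq window of 300 bases around the gene start in build GRCr8, printed 5′ to 3′ on the gene's strand, with capitals marking a match on either strand to the STAT motif TTCNNNGAA or to the NF-kB consensus. Windows with a match made up 8.87% and 7.51% of all 33469 promoters in the table. A match is a description of the letters and not a shown binding site.
Serpina3n (chr6:129088142-129088441, plus strand, STAT): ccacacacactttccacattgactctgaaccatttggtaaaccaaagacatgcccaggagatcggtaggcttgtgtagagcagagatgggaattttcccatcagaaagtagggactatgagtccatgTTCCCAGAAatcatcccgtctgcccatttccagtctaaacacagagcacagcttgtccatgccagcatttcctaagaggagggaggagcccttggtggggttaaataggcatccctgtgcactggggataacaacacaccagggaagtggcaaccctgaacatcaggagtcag
Lcn2 (chr3:36081731-36082030, minus strand, NF-kB): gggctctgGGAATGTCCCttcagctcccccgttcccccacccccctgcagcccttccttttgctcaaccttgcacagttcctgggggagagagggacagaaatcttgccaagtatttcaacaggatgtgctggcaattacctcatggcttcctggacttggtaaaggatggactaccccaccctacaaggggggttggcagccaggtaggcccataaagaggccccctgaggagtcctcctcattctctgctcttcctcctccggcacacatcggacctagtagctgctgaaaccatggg
Cxcl2 (chr14:17467206-17467505, minus strand, NF-kB in 2 overlapping matches): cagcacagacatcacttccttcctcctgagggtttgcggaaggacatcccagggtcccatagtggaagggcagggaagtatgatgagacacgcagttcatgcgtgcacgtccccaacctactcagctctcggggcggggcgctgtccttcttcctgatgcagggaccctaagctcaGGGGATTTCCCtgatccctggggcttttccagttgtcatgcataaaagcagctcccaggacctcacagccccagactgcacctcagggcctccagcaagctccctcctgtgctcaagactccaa
Ccl20 (chr9:91836909-91837208, plus strand, NF-kB): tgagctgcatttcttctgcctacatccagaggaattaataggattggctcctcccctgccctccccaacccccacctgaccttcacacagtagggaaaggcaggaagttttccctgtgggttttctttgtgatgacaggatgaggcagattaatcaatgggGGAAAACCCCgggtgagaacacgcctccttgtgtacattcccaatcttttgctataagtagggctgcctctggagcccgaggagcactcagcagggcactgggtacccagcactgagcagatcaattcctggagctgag

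Neutrophil markers were also highest in pools 5 and 6. Of 7 genes 6 were lower at 3 d, none at an unadjusted p below 0.05, with a median of -0.38 against 0.08 contralaterally. The ipsilateral median ran from -0.98 with a strict probe filter to -0.18 with quantile normalization over the 20 sham and healthy arrays, where 4 and 5 of the genes were left. S100a8, the calgranulin of neutrophils, read 7.64, 9.36, 4.63 and 4.54 at 24 h and 3.88, 4.12, 6.44 and 3.72 at 3 d (difference -2 ± 0.99). Pool 6 was the highest at 24 h, and 3 d pool 15 exceeded 24 h pools 7 and 8. Its partner S100a9 had a difference of -1.78 ± 0.89. The mean log2 level of the list ranged from 3.09 to 5.55 at 24 h and from 2.85 to 3.70 at 3 d, and Cxcr2 was above background on none of the 8 arrays. The part of leukocyte number in the chemokine values was not tested.

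Extracellular matrix genes did not share this direction, since 14 of 22 were higher at 3 d and none passed an unadjusted p of 0.05. Spp1, osteopontin, read 8.93, 8.29, 8.05 and 5.96 at 24 h and 5.19, 5.64, 8.04 and 8.06 at 3 d, so that at each time some pools were at least 2 log2 units above others. Its difference was -1.07 ± 1.00. Cd44, the hyaluronan receptor, had a difference of -0.43 ± 0.57, and Sparc, a collagen-binding matrix protein, one of 0.28 ± 0.15.

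Read array by array, the pools of each time were unlike each other. The mean reactive astrocyte level exceeded the healthy mean by 2.03, 1.28, 0.54 and 0.64 in 24 h pools 5, 6, 7 and 8 and by 1.30 and 0.73 in 3 d pools 15 and 16, whereas the deviations of pools 13 and 14 were -0.10 and -0.25, beside -0.14 to 0.16 in the healthy arrays. At 3 d, pools 15 and 16 were thus within the range of 24 h and pools 13 and 14 below it. Contralateral arrays of the same pools stayed between -0.31 and 0.15. Without 24 h pool 5 the list's median difference was -0.36 with 1 gene at an unadjusted p below 0.05, and without 3 d pool 14 -0.32 with 1. It was -0.66 with 5 without 24 h pool 7, -0.82 with 5 without 24 h pool 8 and -0.91 with 5 without 3 d pool 15. Leaving out both 24 h pool 8 and 3 d pool 15 gave -1.18 with 7. That pair was chosen after the data were seen, because each omission had raised the count of probes most. The larger difference is therefore no separate evidence.

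**Figure D3:**
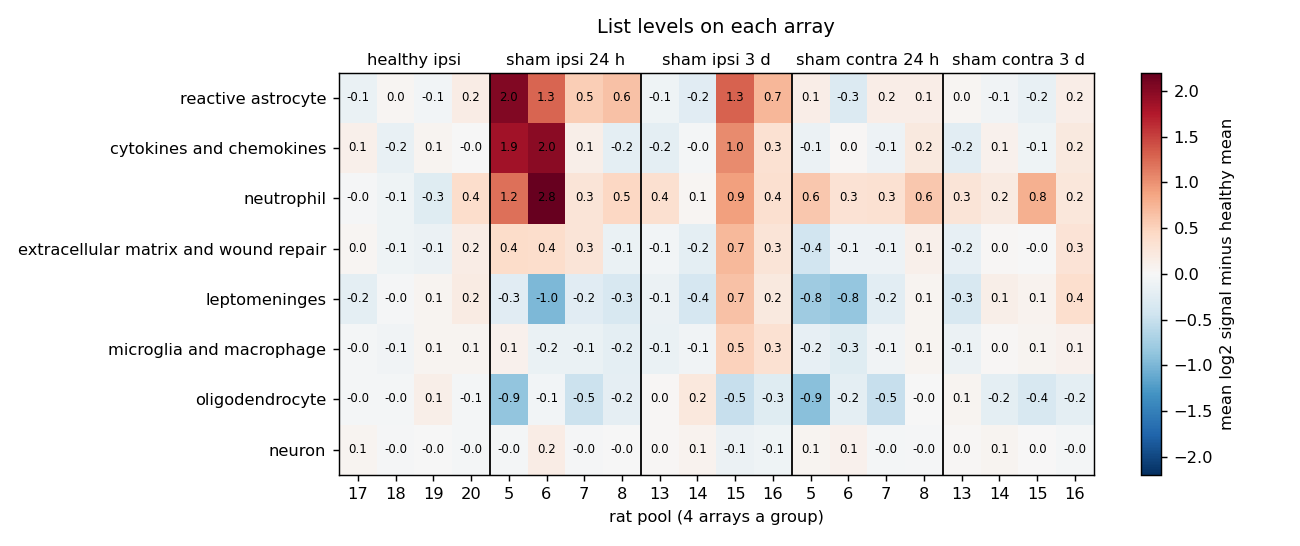
Mean log2 signal of 8 gene lists (rows) on each of the 20 sham and healthy arrays (columns, numbered by rat pool), minus the mean of the healthy arrays, as colour and printed value. Ipsilateral pools 5 and 6 at 24 h and pool 15 at 3 d have the 3 highest values of the reactive astrocyte, cytokine and neutrophil lists, while the neuron list stays between -0.14 and 0.16 on all sham arrays.

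Whether the change with time belonged to the operated side was tested on the ipsilateral minus contralateral difference within each pool. Of 30514 probes 0 passed (smallest adjusted p 0.0843 by limma), and 572 had an unadjusted p below 0.05 (1.87%), 389 with a positive difference (1.27%) and 183 with a negative one (0.6%). Over genes the shares were 0.803% and 0.298%. Cxcl2 gave -2.07 ± 0.79 (unadjusted p 0.0314, adjusted p 1), Serpina3n -1.90 ± 0.94, Ccl20 -2.66 ± 1.38 and Lcn2 -1.29 ± 0.83. These 4 were named for their ipsilateral values, which the side difference uses again, so their direction is no separate evidence, and none passed the correction.

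Of the 12 increases named by rule, those with the smallest unadjusted p among genes whose arrays do not overlap, none passed the correction. Chst5, a carbohydrate sulfotransferase, had a fitted difference of 1.66 ± 0.41 and was above background on only 1 array at 24 h. Abhd1, a member of the hydrolase-fold family, read 6.91, 6.82, 6.81 and 6.99 at 24 h and 7.58, 7.71, 7.64 and 7.92 at 3 d (difference 0.83 ± 0.22, contralateral 0.72). Glud1, the glutamate dehydrogenase of mitochondria, read 10.68, 10.99, 11.02 and 11.30 at 24 h and 11.78, 11.61, 11.62 and 12.06 at 3 d. Its groups did not overlap, and its difference was 0.77 ± 0.22 ipsilaterally and 0.71 contralaterally.

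The other increases were Recql, a DNA helicase (0.60 ± 0.16), Cyp27a1, the sterol 27-hydroxylase (0.67 ± 0.18), Alg1, a mannosyltransferase of protein glycosylation (1.51 ± 0.42), and Fat2, a protocadherin (1.63 ± 0.45). Alg1 was above background on 2 arrays at 24 h and Fat2 on 1. Hoga1, an aldolase of hydroxyproline breakdown, differed by 1.08 ± 0.30 and Diras3, a small GTPase, by 0.71 ± 0.20. Aldh9a1, an aldehyde dehydrogenase, differed by 0.79 ± 0.22, Aspn, the matrix protein asporin, by 1.19 ± 0.34, and Sdc2, the proteoglycan syndecan-2, by 0.48 ± 0.14. Contralateral differences of the 12 genes ran from 0.20 for Cyp27a1 to 1.05 for Fat2, in arrays of the same rat pools, which deviate together.

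Of the 12 decreases, Per2, a repressor of the circadian clock, had the smallest unadjusted p (0.000363, adjusted p 0.528 by limma). It read 10.22, 9.72, 10.20 and 9.58 at 24 h and 9.03, 9.20, 9.34 and 8.82 at 3 d. No array of one time reached those of the other, and healthy arrays (9.15 to 9.78) overlapped both. The difference was -0.84 ± 0.21 (95% interval -1.27 to -0.41), 1.78-fold higher at 24 h, and contralaterally -0.78. The test between sides gave -0.06 ± 0.19. On the slides that held both times the difference was -1.02 and -0.76. Mrap, the accessory protein of the ACTH receptor, read 5.86, 5.53, 5.07 and 5.76 at 24 h and 4.47, 4.42, 4.85 and 4.08 at 3 d, a difference of -1.10 ± 0.30 (contralateral -1.28). The healthy arrays (4.18 to 4.59) lay with those at 3 d.

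The remaining decreases were smaller. Rc3h2, an RNA-binding ubiquitin ligase, differed by -0.59 ± 0.15, RGD1561796 by -0.58 ± 0.16, Alkbh8, a transfer RNA methyltransferase, by -0.58 ± 0.17 and Rabgap1, a Rab GTPase activator, by -0.51 ± 0.16. Phip differed by -0.63 ± 0.20, Spmip8 by -0.65 ± 0.21, Ankfy1, an effector of Rab5, by -0.54 ± 0.18, Phf8, a histone demethylase, by -0.76 ± 0.25, LOC679894 by -0.83 ± 0.27 and Ndufc2, a subunit of complex I, by -0.83 ± 0.29. Other probes of 4 of these genes pointed the opposite way, at 0.07 for Rc3h2, 0.35 for Ankfy1, 0.01 for Phf8 and 0.37 for Ndufc2, so their direction depended on the probe.

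**Figure D4:**
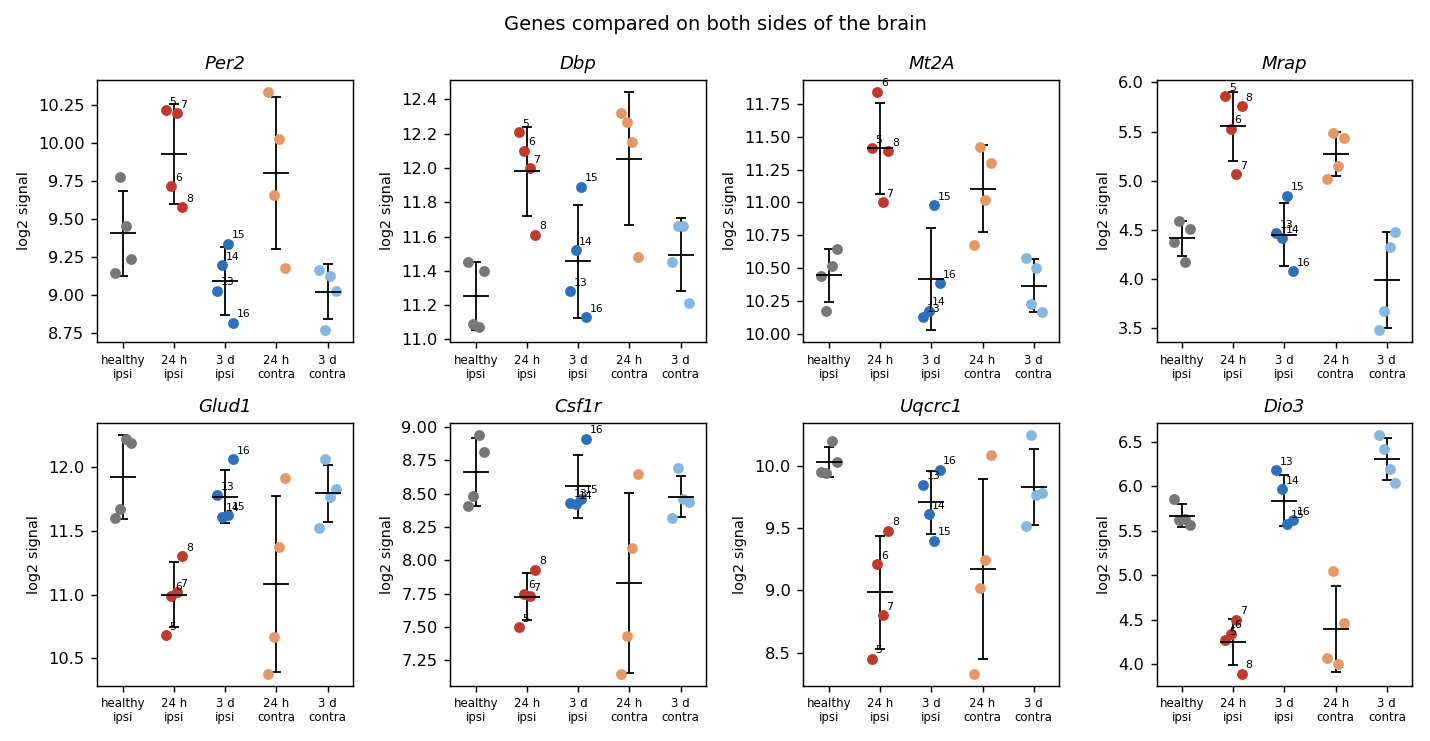
Log2 signal (y axis) of 8 genes on every sham and healthy array, with points, numbers and bars (mean and SD of 4 arrays) as for the wound genes. In all panels the mean at 3 d differs from that at 24 h in the same direction on both sides, and in Glud1, Csf1r and Uqcrc1 a contralateral 24 h array (pool 8) lies among those at 3 d.

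Among 17 circadian clock genes, 2 were lower and 1 higher at an unadjusted p below 0.05, where 2.37% and 6.75% of all genes were. The list had 14 intervals within 2-fold and a median of 0.04. Besides Per2, Dbp, a clock output factor, read 12.21, 12.10, 12.00 and 11.61 at 24 h and 11.28, 11.52, 11.89 and 11.13 at 3 d (difference -0.53 ± 0.25, contralateral -0.56). Pool 15 overlapped the 24 h range. Nfil3, which opposes Dbp at its target sites, differed by 0.59 ± 0.28, while Per1 (-0.13 ± 0.21) and Nr1d1 (0.08 ± 0.21) gave intervals within 2-fold. The hour of sampling is not given in the sources used here.

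Of 15 genes responsive to glucocorticoids and stress hormones, 4 were lower and none higher at an unadjusted p below 0.05 on each side of the brain, where 2.37% of all genes were lower ipsilaterally and 2.93% contralaterally. The median was -0.16 ipsilaterally and -0.10 contralaterally. Mt2A, a metal-binding metallothionein that glucocorticoids raise, read 11.41, 11.84, 11.00 and 11.39 at 24 h and 10.13, 10.18, 10.98 and 10.39 at 3 d. Both times were separate, although 3 d pool 15 lay just below 24 h pool 7, and the difference was -0.99 ± 0.36 (unadjusted p 0.00947, adjusted p 0.528), with -0.73 contralaterally. Sult1a1, a sulfotransferase, differed by -0.67 ± 0.26, Zbtb16, a transcription factor induced by glucocorticoids, by -0.56 ± 0.25 and Tsc22d3, the glucocorticoid-induced leucine zipper, by -0.29 ± 0.13. Tsc22d3 gave 0.13 with its other probe. Mt1 (-0.57 ± 0.40), Dusp1 (0.87 ± 0.47) and Fkbp5 (-0.06 ± 0.17), which glucocorticoids also raise, did not share a direction.

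Of 23 interferon-induced genes, 3 were lower and none higher at an unadjusted p below 0.05, where 2.37% of all genes were lower, and the median was -0.22 ipsilaterally and 0.00 contralaterally. Irf7, a master regulator of interferon genes, read 9.06, 8.63, 8.80 and 8.27 at 24 h and 7.54, 8.13, 7.93 and 8.06 at 3 d (difference -0.78 ± 0.31, contralateral -0.56). Its groups were separate, whereas Oas1a (-0.76 ± 0.30) and Isg15 (-0.84 ± 0.34) overlapped. Without 24 h pool 5, or without 3 d pool 13, none of the list was lower at that threshold. Ifit1 and Oasl were above background on none of the 8 arrays.

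The leptomeningeal list had the second highest median, 0.49 ipsilaterally and 0.41 contralaterally. Of 17 genes 16 were higher at 3 d and 5 had an unadjusted p below 0.05, where 6.75% of all genes were higher. Slc22a6, an organic anion transporter, read 3.38, 2.86, 3.99 and 4.39 at 24 h and 4.80, 4.70, 5.28 and 5.18 at 3 d (difference 1.34 ± 0.42). Lum, the collagen-binding proteoglycan lumican, read 3.38, 2.98, 3.21 and 3.78 against 4.42, 4.44, 5.26 and 5.51 (difference 1.57 ± 0.52). Neither overlapped between times, pools 15 and 16 were the highest, and Lum was above background on 1 array at 24 h. Cilp (0.93 ± 0.30), Wnt6 (1.12 ± 0.49) and Igfbp2 (0.71 ± 0.35) were the others. The mean level of the list ranged from 8.23 to 8.97 at 24 h, from 8.84 to 9.87 at 3 d and from 9.01 to 9.39 in healthy cortex, and 15 of the 17 genes were above background on all 8 arrays. The share of meninges in each sample was not tested.

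Microglial markers were higher in 14 of 17 cases, with a median of 0.18 against 0.08 over all genes. Of the 17, 2 were higher at an unadjusted p below 0.05, where 6.75% of all genes were. Csf1r, the receptor on which microglia depend, read 7.50, 7.75, 7.73 and 7.93 at 24 h and 8.43, 8.42, 8.46 and 8.91 at 3 d, a difference of 0.83 ± 0.29 with separate groups. Tmem119, a marker of resident microglia, differed by 1.59 ± 0.51 but was above background on 2 arrays at 24 h. The healthy arrays of Csf1r (8.41 to 8.94) lay with those at 3 d, and its contralateral difference was 0.65. Cfb, complement factor B, was lower at an unadjusted p of 0.0378 (-0.65 ± 0.30), with 10.05 in 24 h pool 5 against 7.94 to 8.82 in all other arrays of both times. Of the 13 complement genes, 1 was lower and 1 higher at an unadjusted p below 0.05, where 2.37% and 6.75% of all genes were. Their median was 0.03, and 11 of their intervals lay within 2-fold.

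The respiratory chain list had the highest median, 0.61 on each side, but only 7 of its 26 genes had a probe that passed the filter. Uqcrc1 of complex III read 8.45, 9.21, 8.80 and 9.48 at 24 h and 9.85, 9.61, 9.40 and 9.97 at 3 d (difference 0.72 ± 0.26). Its groups overlapped, as 24 h pool 8 exceeded 3 d pool 15. The synthase subunits Atp5f1b (0.61 ± 0.24) and Atp5f1a (0.62 ± 0.26) and Ndufs1 of complex I (0.81 ± 0.36) were higher as well. Cox5a of complex IV was lower (-0.90 ± 0.35, contralateral -0.88), so the members did not share a direction. The cytosolic ribosomal list, of which only 8 of 26 genes passed the same filter, had 2 higher at an unadjusted p below 0.05, where 6.75% of all genes were. These were Rpl3 (0.46 ± 0.20) and Rpl4 (0.42 ± 0.20).

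**Figure D5:**
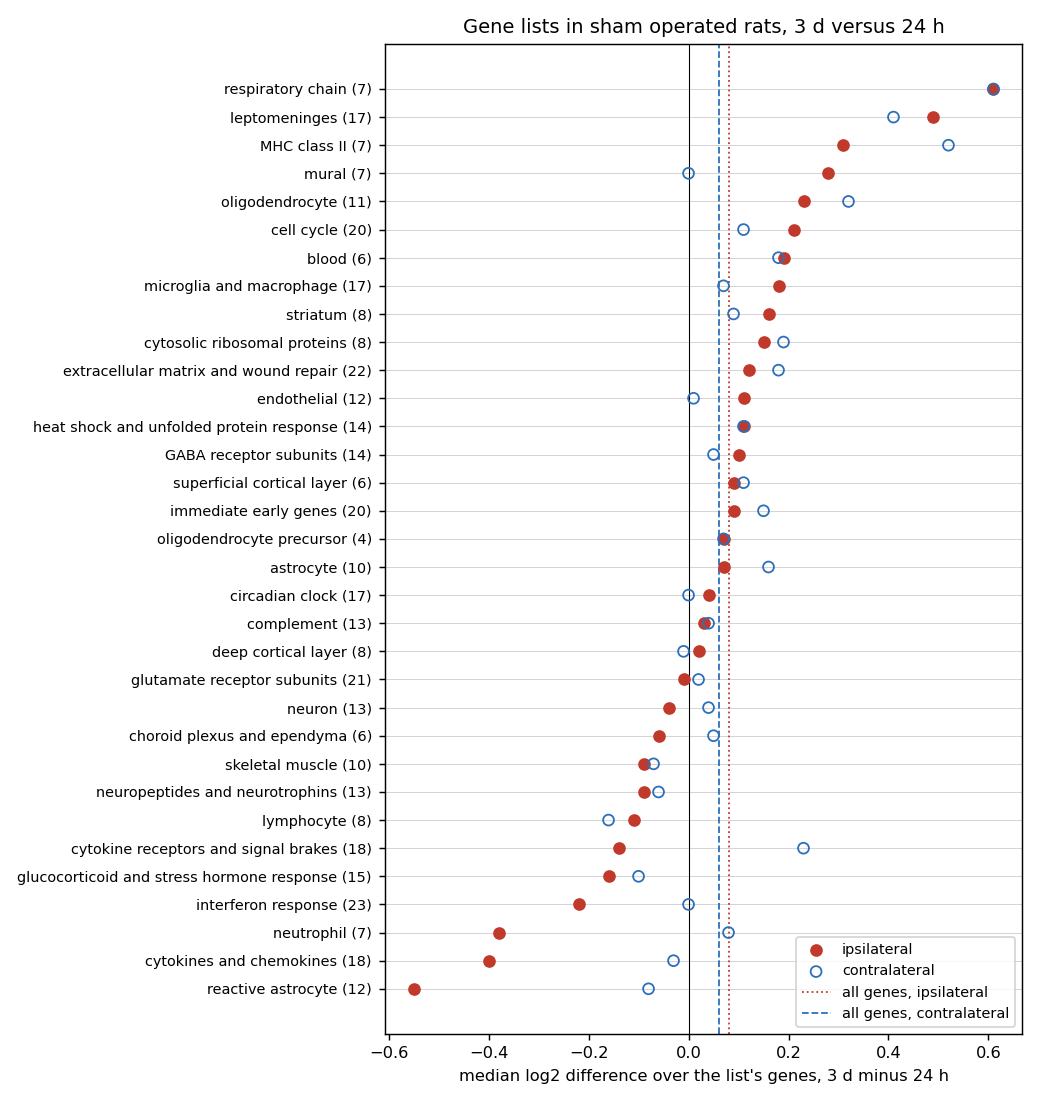
Median log2 difference, 3 d minus 24 h (x axis), over the tested genes of each of 33 lists (y axis, number of genes in parentheses). Filled points are ipsilateral and open points contralateral cortex, and dotted and dashed lines are the medians over all genes. The reactive astrocyte, cytokine and neutrophil lists are at -0.55, -0.40 and -0.38 ipsilaterally and near 0 contralaterally, whereas the respiratory chain list is at 0.61 on both sides.

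The neuron list had a median of -0.04 with 0 of 13 genes at an unadjusted p below 0.05. Its leading members were Syt1, the calcium sensor of synaptic vesicles (-0.60 ± 0.33), and Map2, a dendritic microtubule protein (-0.46 ± 0.31), while Snap25 of the vesicle fusion complex gave 0.12 ± 0.21. Syt1 gave 0.27 with its other probe. For 19 of 21 glutamate receptor subunits and all 14 GABA receptor subunits the interval lay within 2-fold, and 3 of the glutamate receptor subunits were lower on all arrays at 3 d than on any at 24 h (1.32% of all genes). Grm3, a metabotropic receptor (-0.46 ± 0.22, but 0.32 with its other probe), and Gria4, an AMPA receptor subunit (-0.49 ± 0.24), were lower at an unadjusted p below 0.05, where 2.37% of all genes were. Gabra3 (0.39 ± 0.24) and Gabra5 (0.29 ± 0.31) led the GABA receptor list. Of 20 immediate early genes, which report recent neuronal activity, none passed that threshold and 8 intervals lay within 2-fold, and Dusp1 and Jun (0.34 ± 0.18) were the nearest. Among 13 neuropeptides and neurotrophins, whose differences ran from -0.96 to 0.87 with 8 intervals within 2-fold, Cort, cortistatin, differed by -0.64 ± 0.32 and Ntf3 by 0.87 ± 0.63, the latter above background on 1 of the 8 arrays.

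The layer and region markers gave Rorb of layer 4 (-0.37 ± 0.19), Rasgrf2 (0.34 ± 0.33), Foxp2 of deep layers (0.76 ± 0.49) and Crym (0.57 ± 0.39), with 0 genes at an unadjusted p below 0.05 in either layer list. The striatal marker Drd1 (0.68 ± 0.42) did not pass either. Astrocyte markers of the resting state were led by Aqp4, the water channel (0.28 ± 0.16), and Slc1a3, a glutamate transporter (0.42 ± 0.24). Ugt8, which makes myelin galactolipid, was higher at an unadjusted p of 0.0158 by limma (0.90 ± 0.36), with Cnp at 0.42 ± 0.25. It was 1 of 11 oligodendrocyte genes higher at an unadjusted p below 0.05, where 6.75% of all genes were. The precursor markers Olig2 and Olig1 gave 0.57 ± 0.30 and -0.13 ± 0.19.

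Vascular markers were led by Tek (0.37 ± 0.26) and Tie1 (0.40 ± 0.30) of endothelium and by Rgs5 (0.55 ± 0.25) and Abcc9 (0.28 ± 0.20) of mural cells. Rgs5 was 1 of 7 mural genes higher at an unadjusted p below 0.05, where 6.75% of all genes were. The cell cycle list had 1 of 20 genes higher at an unadjusted p below 0.05, a share no greater than the 6.75% of all genes. That gene was Top2a, the topoisomerase of dividing cells. It read 2.92, 3.11, 2.21 and 1.98 at 24 h and 3.60, 3.55, 4.66 and 4.51 at 3 d (difference 1.53 ± 0.67) and was above background on 1 array at 24 h and on 4 at 3 d. Ccnd1, cyclin D1, gave -0.50 ± 0.34. In the heat shock list, Hspa8, the constitutive chaperone, was higher by 0.69 ± 0.29 while Hspb1 was lower. Myd88, an adaptor of Toll-like receptors, gave 0.60 ± 0.33. Of class II antigen presentation genes, Cd74, the invariant chain, gave 0.49 ± 0.42, and RT1-Ba was above background on none of the 8 arrays.

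The blood, choroid plexus and ependyma, and skeletal muscle lists gave no gene at an unadjusted p below 0.05, unlike the leptomeningeal list above. For blood the leading members were Slc4a1 (0.34 ± 0.69) and Hba-a3 (0.17 ± 0.39), for choroid plexus and ependyma Foxj1 (-0.56 ± 0.35) and Folr1 (0.17 ± 0.60), and for skeletal muscle Acta1 (0.37 ± 0.26), while Ckm and Tnnt3 of muscle were above background on no array. Among lymphocyte genes Nkg7 gave -0.21 ± 0.21 and Cd79b 0.36 ± 0.43.

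Contralateral cortex over the same interval had 1 called probe, without a gene symbol (-2.64, adjusted p 0.00302 by limma), which is 0.00328% of those tested. At an unadjusted p below 0.05 there were 3372 (11.1%), 1448 higher (4.75%) and 1924 lower (6.31%), and over genes 6.65% were higher and 2.93% lower. Without the contralateral array of 24 h pool 8, 854 probes were called. Set against healthy cortex, in comparisons that share arrays with the change from 24 h to 3 d, 24 h had 6774 probes at an unadjusted p below 0.05 (22.2%), 9.41% higher and 12.8% lower, and over genes 18.6% were lower. At 3 d there were 251 (0.823%), 0.387% higher and 0.436% lower, and over genes 0.397% were lower. None was called by limma in either. Without 24 h pool 8 the first of these comparisons had 1359 called probes.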

How the data were processed

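Cortical RNA was hybridised to Agilent whole rat genome one-colour arrays. For the deposited intensity values per spot the authors used Feature Extraction 10.7.3.1 of Agilent, with background subtracted and spatial trends corrected per the file headers. The deposited flags per spot mark signal above background and outliers, and the authors also deposited a table of quantile-normalized log2 values. Here, outlier spots were set to missing, signals below 1 set to 1, quantile normalization run over 44 arrays and log2 values averaged per probe. In a filter modelled on the study's, probes were kept if above the 20th percentile, and above background, in 75% of the arrays of a group and with a coefficient of variation above 2.5%, which left 30514, more than the 20395 of the authors' table, so it is not the same filter. The filter took the flag for positive and significant signal, whereas counts of arrays above background took the flag for signal well above background. No spot was saturated. The number of arrays, 4 a group, limits the precision.

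Groups were fitted as 11 means over all arrays with limma 3.58.1 in R 4.3.3, Benjamini-Hochberg adjustment, and a call at adjusted p below 0.05 and 2-fold. The side difference was tested on ipsilateral minus contralateral values within the 8 pools, whose arrays come from the same rats and deviated together (r from 0.0641 to 0.503, over 0.1 in 7 of 8). P-values of the group comparisons rest on the spread between arrays within groups, estimated over all 11 groups, ischemic ones included. Arrays of the same pool counted as independent in that fit, so this spread is not that between sham pools alone. The side difference was tested against the spread between pools of 3 rats. A floored fold was given where no array of the dimmer group was well above background. On each such array the probe was set no lower than the lowest signal among probes well above background. A probe that is not well above background can lie above that floor, so a floored fold is no strict lower bound. It concerns the group means only. It leaves out the spread between arrays, so single arrays of both groups can overlap. One probe per gene, that of the highest mean signal, was used for 12082 genes, with symbols from RefSeq accessions (16815 probes) or the authors' tables (2502), and 21695 probes were left without one.

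Named were the 12 largest increases and 12 decreases among called genes with arrays that do not overlap and signal above background on at least 3 arrays of the higher group, filled by smallest unadjusted p as none was called, and of each of 33 lists the called members and the 2 with the smallest p. Some genes named by this rule are not reported here. A further 23 genes were singled out after their values were seen. Members and lists were chosen with earlier results of these data known. Scripts were tested on simulated data. The alternatives concerned normalization, background, filters, arrays and weights, slide and pool blocks, probes and left-out arrays.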

Additional observations from a re-analysis of the deposited data

Results flagged for a closer look

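Of 224 sets of 4 arrays examined (112 genes at 24 h and at 3 d), 13 held an array that stood apart from the other 3 of its group (5.8%), where chance gives about 1 in 20. Pool 15 at 3 d was that array in 6 of them. It was high for S100a8 (6.44, next 4.12), S100a9 (6.57, next 4.63), Mt1 (11.09, next 9.94), Aspn (6.43, next 5.21) and Ccnd1 (9.92, next 9.61) and low for Gabra3 (5.80, next 6.14). Pool 5 at 24 h was high for Cfb (10.05, next 8.57) and RT1-Ba (2.02, next 0.84) and low for Olig1 (12.13, next 12.84). Pool 8 at 24 h was high for Olig2 (5.44, next 4.32). At 3 d, pool 13 was high for Alg1 (5.41, next 3.98), pool 16 high for Csf1r (8.91, next 8.46) and pool 14 low for Nkg7 (4.64, next 5.06). No gene's change with time differed between sides after correction (smallest adjusted p 0.0843 by limma).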

How the results depend on the processing

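Called probes between 3 d and 24 h in ipsilateral cortex stayed at 0 under 13 of 16 alternatives. They were 1, Dio3, with quantile normalization over the 20 sham and healthy arrays and in the fit of those arrays alone, and 560 (229 higher, 331 lower) when those arrays were weighted, with weights from 0.306 (contralateral 24 h pool 5) to 3.53 (ipsilateral 3 d pool 13) and 0.404 for ipsilateral 3 d pool 15. The cause was not tested. Leaving out 1 array gave 0 to 2. Without both 24 h pool 8 and 3 d pool 15, a choice made after seeing the data, it was 0, with 7460 at an unadjusted p below 0.05. With rat pool as a replicate block it was 0, with 3083 at that threshold, and the pairing changed no other call.

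In contralateral cortex, 1 in the fit reported, the count was 2 with 75th percentile scaling, 3 with array weights and with slide as a random block, and 0 with the authors' table, normexp, the strict filter, the compared groups alone, slide as a fixed block and the mean of probes. Leaving out 1 array gave 0 to 854. Against healthy cortex, 24 h gave 1 with 75th percentile scaling and 1883 with array weights, and leaving out 1 array gave 0 to 1359 at 24 h and 0 to 2 at 3 d. The side difference gave 1 with the authors' table, 0 with no replicate block (318 at an unadjusted p below 0.05) and 0 without each pool.

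Of 112 genes, 100 kept their direction throughout. The other probe gave 0.07 for Rc3h2, 0.32 for Grm3, 0.27 for Syt1, 0.01 for Phf8, 0.13 for Tsc22d3, 0.37 for Ndufc2 and 0.35 for Ankfy1. Fkbp5 gave 0.04 as the mean of probes and 0.26 with another probe, and Hba-a3 gave -0.09 with array weights and -0.03 without the 2 arrays named above. Leaving out 1 array gave -0.15 to 0.03 for Fkbp5, -0.09 to 0.18 for Nr1d1, -0.49 to 0.06 for Gfap, -0.03 to 0.52 for Slc4a1 and -0.14 to 0.34 for Hba-a3. With array weights 23 of the 112 were called.

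Slide as a random block on the pool differences was not run, as a pool's arrays lay on different slides, and normexp used median signals. With 4 arrays a group, intervals were wide for dim probes.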
